A study of Homo sapiens with 6 samples.

Results

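Autophagy carries cell contents to the lysosome, and 19 genes of its machinery and of the lysosomal proton pump are described here in RKO cells, an established human colorectal carcinoma line. The genes were chosen by name: MAP1LC3B, GABARAPL1, SQSTM1, PIK3R4 and ATP6V1B2, together with every other gene in the deposited table whose symbol begins with ATP6V (7 genes) or with ATG and a digit (7 genes). They are 19 of the 3511 genes in that table. Another 27 protein-coding genes with such names in the GENCODE annotation, among them ATG7, ATG9A, ATG16L1, ATP6V1A and ATP6V0C, are not listed and have no value here. Wild-type RKO cells were held for 48 h in control medium with 10% serum and 4.5 g/L glucose (3 libraries) or in fasting medium with 1% serum and 1 g/L glucose (3 libraries). Both groups are the same unmodified line without drug, so the only labelled difference is the medium, in which serum and glucose changed together. Markers of the line could not be checked, since the table holds only genes with a difference. Values are normalized counts, that is, reads per gene divided by a size factor of the library, and 4017618 to 5602177 reads per library fell in the listed genes.

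Autophagy begins when the ULK kinase complex (ATG13, ATG101) and a lipid kinase complex (PIK3C3, PIK3R4, BECN1, ATG14) mark a membrane. That membrane grows and is coated with ubiquitin-like proteins of the ATG8 family, LC3 and GABARAP, which a conjugation machinery (ATG5, ATG12, ATG16L1) attaches to lipid. Cargo receptors such as SQSTM1 (p62) bind both ubiquitin-tagged cargo and ATG8 proteins, and are themselves degraded with the cargo. The closed vesicle fuses with the lysosome, which is kept acidic by the V-ATPase, a proton pump with a cytosolic V1 sector that splits ATP and a membrane V0 sector that passes protons. The messenger RNA level of these genes is not a measure of how much material passes through the pathway.

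The 300-base promoter windows of RefSeq (GRCh38.p14), which run from 250 bases before the start to 50 after it, were read for 15 of the 19 genes, in 19 windows. They were searched on both strands for CACGTG (the E-box at the core of the lysosomal CLEAR element bound by TFEB and TFE3), TGATGNAA (core of the composite element bound by ATF4) and TGACNNNGC (core of the antioxidant response element bound by NRF2). These 100 bases before the start are shown because they hold a motif in genes that rose, with PIK3R4, a gene that fell, for comparison. Motif letters are in capitals and all are written 5′ to 3′ on the strand of the gene.
MAP1LC3B, chr16:87392236-87392335, plus strand: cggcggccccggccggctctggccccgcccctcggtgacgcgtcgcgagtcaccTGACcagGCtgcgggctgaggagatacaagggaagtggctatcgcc
ATP6V1G1, chr9:114587669-114587768, plus strand: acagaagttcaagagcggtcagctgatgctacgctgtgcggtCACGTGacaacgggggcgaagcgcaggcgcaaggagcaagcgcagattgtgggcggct
ATG14, chr14:55411831-55411930, minus strand: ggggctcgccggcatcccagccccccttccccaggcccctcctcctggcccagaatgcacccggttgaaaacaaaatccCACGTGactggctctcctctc
PIK3R4, chr3:130746830-130746929, minus strand: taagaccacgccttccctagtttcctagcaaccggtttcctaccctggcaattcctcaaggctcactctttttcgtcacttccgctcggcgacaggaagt

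CACGTG stood in 2 of the 19 windows, those of ATP6V1G1 (58 bases before the start) and ATG14 (21 bases before it), against 7.26% of all 35116 promoter windows. TGACNNNGC stood in 4, those of MAP1LC3B (46 bases before the start), ATP6V0A1, ATG101 and ATP6V1G1, where it spans the start and so is not in capitals above, against 13.3% of all windows. TGATGNAA stood in 0 of the 19, against 3.62%. In windows of listed genes called higher in fasting medium, CACGTG, TGACNNNGC and TGATGNAA stood in 10.4%, 16.7% and 3.42%. In those of genes called lower they stood in 8.97%, 12.1% and 1.72%. The windows of SQSTM1, GABARAPL1 and PIK3R4 held none of the 3 motifs. These counts describe letters in short windows and say nothing of binding.

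In fasting medium 16 of the 19 genes rose and 3 fell. The largest rises were those of MAP1LC3B (4.14-fold), the pump subunit ATP6V1G1 (3.83-fold), GABARAPL1 (3.49-fold) and SQSTM1 (3.04-fold). PIK3R4, ATG16L2 and ATG4C fell. The test was limma on log2(normalized count + 1), two-sided, with Benjamini-Hochberg adjustment over the 29845 genes that the authors tested and a threshold of 0.05. A positive log2 fold change on that scale means more in fasting medium. All 19 genes were past this threshold, and the groups did not overlap in any of them, but neither is a result about these genes. The table is selected for a difference, and of all its genes 94.3% pass the test and 100% have groups that do not overlap. It holds 11.8% of the genes tested by the authors. What can be read is direction and size. Of all listed genes 49.7% passed upward and 44.6% downward, and the median log2 fold change was 0.53, against 0.96 for the 19 genes. At least 2-fold rises numbered 9 of the 19, against 26.6% of listed genes, and at least 2-fold falls 0 of the 19, against 19.8%. These counts move with the scaling: scaled to total reads, 4 of the 19 rose and 3 fell at least 2-fold, against 12.5% and 48.6% of listed genes, and the medians were 0.49 and 0.06. In bulk RNA, fewer cells with a change and a smaller change in each cell cannot be told apart.

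**Figure D1:**
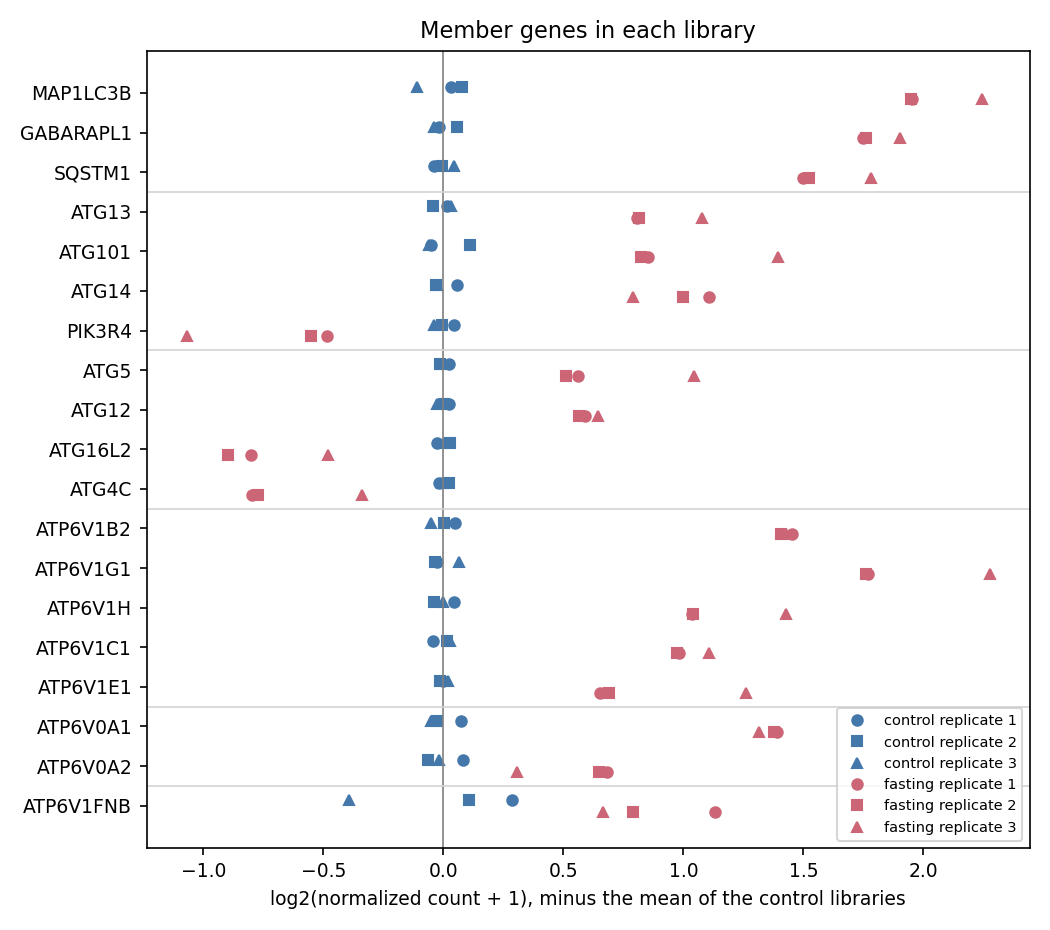
Level of each of the 19 genes in each library, as log2(normalized count + 1) minus the mean of the 3 control libraries, with control libraries in blue and fasting libraries in red. PIK3R4, ATG16L2 and ATG4C lie left of the controls in all 3 fasting libraries and the other 16 genes lie right of them.

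Fasting replicate 3 stood apart from the other fasting libraries by transcript length, and this touches several of the values below. Its log2 difference from the mean of fasting replicates 1 and 2 had a Spearman correlation with transcript length of -0.763 across the 19 genes and of -0.722 across 2886 listed genes whose mean reached 100 in either medium. These are correlations across genes of the same libraries, given as a description. Of the 10 genes with transcripts under 3000 bases, 9 were higher in replicate 3, by a median of 0.38 over all 10. Of the 9 longer ones 4 were higher, with a median of -0.07. Short ATP6V1E1 and ATG101 were raised most in that library, and PIK3R4, with 5015 bases, was lowered most. Without fasting replicate 3 all 19 genes were past the threshold in the same directions. In a further setting, given below as length trend removed, the trend of every library with transcript length against the control mean was taken out. This also takes out any length trend that the fasting libraries share, so it is not a correction of replicate 3 alone. The median log2 fold change of all listed genes was then 0.25.

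**Figure D2:**
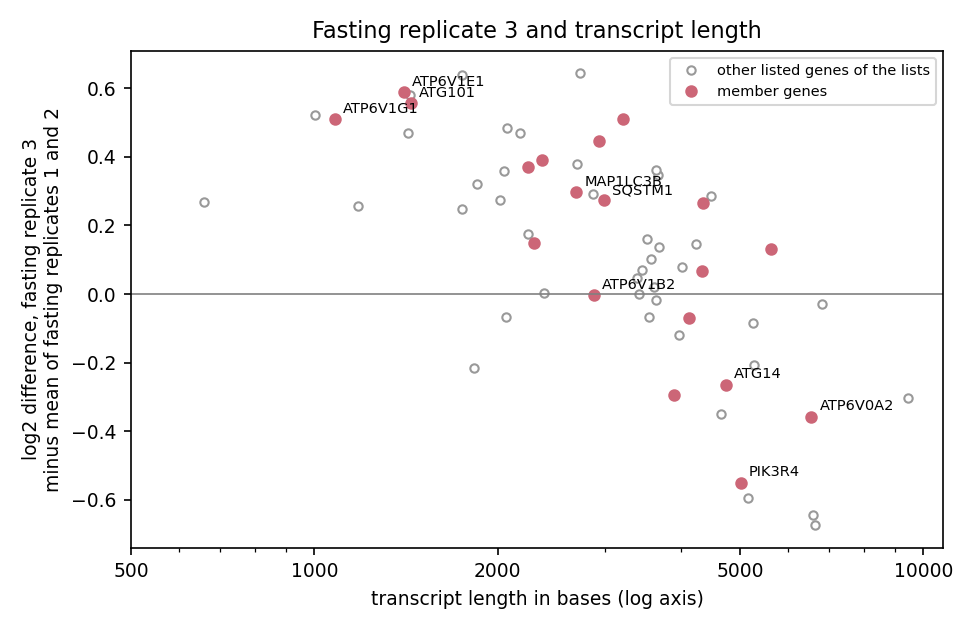
Difference between fasting replicate 3 and the mean of the other fasting libraries (log2 units) against the length of the longest coding transcript (bases, log axis) for the 19 genes (filled) and the other listed genes of the autophagy and lysosome lists (open). Points fall from upper left to lower right, with ATP6V1E1 at 0.59 and PIK3R4 at -0.55.

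The ATG8 genes held the largest change. MAP1LC3B (ENSG00000140941), which encodes LC3B, the protein most used to mark autophagosomes, was measured at 2018, 2082 and 1825 normalized counts in the 3 control libraries, against 7634, 7610 and 9357 in the fasting ones (libraries are always given in the order of their replicate numbers). Every fasting library lay above every control, and replicate 3 was the highest. FBXO31 and an antisense gene lie on the opposite strand over part of MAP1LC3B, and whether counting used strand is not given. Its log2 fold change was 2.05 ± 0.11 (SE, n = 3 each, limma adjusted p = 3.35e-05). GABARAPL1 (ENSG00000139112), of the GABARAP branch of the family, went from 132.2, 139.2 and 130.1 to 451.9, 456.1 and 503.3 normalized counts. Its fasting libraries lay close together, and the log2 fold change was 1.80 ± 0.10 (SE, limma adjusted p = 4.49e-05). Within each library the log2 ratio of MAP1LC3B to GABARAPL1, which no scaling of the library can move, was 3.87 ± 0.06 in controls and 4.12 ± 0.09 in fasting medium (SD, n = 3 each). The rise of this ratio by 0.24 had an exact permutation p = 0.1, the smallest that 3 against 3 samples allow.

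The family did not move as one. Of 7 ATG8 genes 5 were listed, of which 4 rose and 1 fell, where 49.7% of all listed genes passed upward and 44.6% downward. GABARAPL2 rose by 0.78 ± 0.15 (SE, limma adjusted p = 0.0108), from 539 ± 8 to 940 ± 210 normalized counts (SD, n = 3), and its fasting replicate 3 lay at 1177 against 864 and 777. Its call was lost without control replicate 1 or 3, with scaling to total reads (0.30) and without moderation of the variance. MAP1LC3C, which encodes a further LC3 form, fell from 7349, 7227 and 7368 to 3837, 3969 and 4661 normalized counts, by 0.82 on the log2 scale (SE 0.09, limma adjusted p = 0.000937). The 2 groups of libraries lay far apart in opposite directions for MAP1LC3B and MAP1LC3C. Their log2 ratio within a library was -1.86, -1.80 and -2.01 in controls and 0.99, 0.94 and 1.01 in fasting medium, a shift of 2.87 that does not depend on library scaling. This pair was chosen after its values were seen and was not tested.

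Levels of different genes were compared per kilobase of the longest coding transcript in GENCODE, as an approximation, since the transcripts used by the cells are not known. Per kilobase, MAP1LC3C had 6189 ± 65 normalized counts in controls (SD, n = 3), followed by MAP1LC3B (735 ± 50), GABARAPL2 (538 ± 7), MAP1LC3B2 (72.3 ± 7.4) and GABARAPL1 (58.3 ± 2.1). Among these 5 listed genes MAP1LC3C thus made up 81.5% ± 0.8 of the sum in controls and 44.1% ± 1.1 in fasting medium, while MAP1LC3B went from 9.68% ± 0.65 to 38.2% ± 0.1. In fasting medium MAP1LC3C (3247, 3358 and 3944) was still above MAP1LC3B (2840, 2831 and 3481) in each library, by far less than in controls. MAP1LC3A and GABARAP are not listed, so shares of the whole family cannot be given. No GENCODE gene overlaps MAP1LC3C. Its high level rests on how the authors assigned reads, which the sources used here do not describe.

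**Figure D3:**
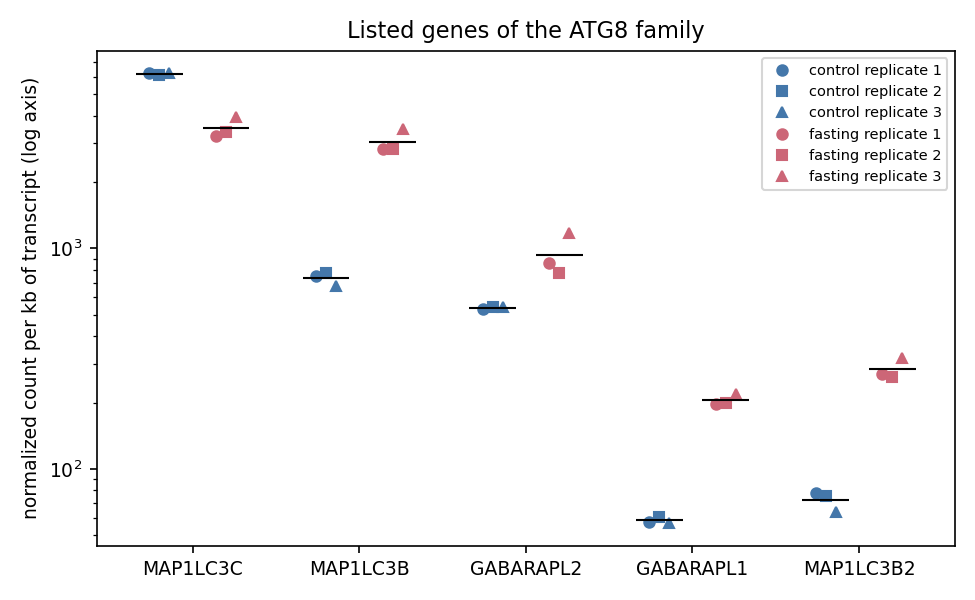
Normalized count per kilobase of transcript (log axis) of the 5 listed ATG8 family genes in each control (blue) and fasting (red) library, with group means as bars. MAP1LC3C falls from a mean of 6189 to 3516 while MAP1LC3B rises from 735 to 3051.

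MAP1LC3B2 rose beside MAP1LC3B, by 1.94 ± 0.15 (SE, limma adjusted p = 0.000143), from 47.7 ± 4.9 to 187 ± 21 normalized counts (SD, n = 3). The coding sequences of the genes are both 378 bases long and differ at 2 bases, so 99.5% are identical. Of 329 windows of 50 bases in the MAP1LC3B2 coding sequence, 258 (78.4%) occur unchanged in a MAP1LC3B transcript. The first 60 coding bases, from GENCODE release 29, show how near the copies are, with the single differing base in capitals.
MAP1LC3B: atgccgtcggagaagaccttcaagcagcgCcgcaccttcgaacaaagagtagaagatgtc
MAP1LC3B2: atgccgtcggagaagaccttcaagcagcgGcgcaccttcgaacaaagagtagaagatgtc

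How reads were divided between these copies is uncertain, so the rise of MAP1LC3B2 may not be independent of that of MAP1LC3B, which was not tested. The log2 ratio of MAP1LC3B to MAP1LC3B2 was 5.34 ± 0.07 in controls and 5.45 ± 0.03 in fasting medium (SD, n = 3 each), a rise of 0.10, which was 0.49 with the length trend removed.

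Cargo receptors rose without exception among those listed. SQSTM1 (ENSG00000161011), which encodes p62, had 2836, 2900 and 3008 normalized counts in control medium, against 8242, 8368 and 10035 in fasting medium. The groups were far apart, with fasting replicate 3 again the highest. MRNIP and MGAT4B overlap it on the opposite strand. The log2 fold change was 1.60 ± 0.10 (SE, n = 3 each, limma adjusted p = 5.95e-05). Of 17 cargo receptor genes 9 were listed and 9 rose, where 49.7% of all listed genes passed upward. Their median was 0.83 against 0.53 for all listed genes. SQSTM1 had the largest rise of them. CALCOCO2, the receptor NDP52, rose by 1.14 and TAX1BP1, a related ubiquitin-binding receptor, by 1.02 (limma adjusted p = 0.000131 and 0.000212). With scaling to total reads, 4 of the 9 still passed, where 862 of all 3511 listed genes passed upward.

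MAP1LC3B rose more than SQSTM1. Their log2 ratio was -0.49, -0.48 and -0.72 in controls and -0.11, -0.14 and -0.10 in fasting medium, with no overlap (exact permutation p = 0.1, adjusted p = 0.111 over 10 pairs). SQSTM1 and the pump gene ATP6V1B2 changed by more similar amounts. Their ratio lay between 0.74 and 0.92 in controls and between 0.87 and 1.18 in fasting medium, and overlapped (exact permutation p = 0.2, adjusted p = 0.2).

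The listed genes of the ULK complex rose less than MAP1LC3B, GABARAPL1 and SQSTM1. Their median of 0.90 was not below the 0.83 of the 9 listed cargo receptors, and that of all listed genes was 0.53. ATG13 (ENSG00000175224), the adaptor of the ULK complex, had 763, 732 and 772 normalized counts in controls and 1321, 1330 and 1594 in fasting libraries. Its log2 fold change was 0.90 ± 0.10 (SE, limma adjusted p = 0.000751). ATG101, its binding partner, went from 563 ± 38 to 1163 ± 274 (SD, n = 3; log2 fold change 1.02). The spread in fasting medium came from replicate 3, at 1480 against 1016 and 995, and without that library the value was 0.84. With the length trend removed it was 0.67. Of 5 genes of this complex 3 were listed and rose, where 49.7% of all listed genes passed upward. The last of the 3 is RB1CC1, the scaffold FIP200. RB1CC1 kept its call when fasting replicate 3 was removed and lost it when any other library was. The call was also lost with total-read scaling and without moderation of the variance.

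The lipid kinase complex moved in both directions. PIK3R4 (ENSG00000196455), which encodes the scaffold VPS15, had 855, 826 and 807 normalized counts in controls, against 592, 565 and 395 in fasting medium. All fasting libraries lay below all controls, replicate 3 by far the lowest. The log2 fold change was -0.70 ± 0.15 (SE, n = 3 each, limma adjusted p = 0.0206). The fall was -0.52 without fasting replicate 3, so the size but not the direction depends on that library. With the length trend of every library removed it was -0.41 (limma adjusted p = 0.0165). The call was lost with RLE scaling (-0.51, adjusted p = 0.137) and in DESeq2 (-0.48, adjusted p = 0.0603), both scaled on the listed genes alone. It was also lost without any 1 control library (limma, adjusted p = 0.0821 to 0.0982) and without moderation of the variance (adjusted p = 0.191).

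The partners of PIK3R4 in the same complex rose. ATG14 (ENSG00000126775), the subunit that directs the complex to autophagy, went from 386, 363 and 363 to 800, 741 and 641 normalized counts, a log2 fold change of 0.96 ± 0.11 (SE, limma adjusted p = 0.000783). With scaling to total reads it was 0.49 and no longer past the threshold (adjusted p = 0.108). NRBF2, another subunit, rose by 0.98. PIK3C3, the catalytic subunit VPS34, rose by 0.54 ± 0.11 (SE, limma adjusted p = 0.0116). It missed the threshold with total-read scaling, without moderation of the variance and when any library other than fasting replicate 3 was removed. Within a library the log2 ratio of PIK3C3 to PIK3R4 was -0.25, -0.19 and -0.25 in controls and 0.89, 0.98 and 1.18 in fasting medium. That of ATG14 to PIK3R4 went from -1.16 ± 0.02 to 0.51 ± 0.17 (SD, n = 3 each). Both ratios are free of library scaling, were chosen after the values were seen and were not tested. BECN1, UVRAG and AMBRA1 are not listed.

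Set side by side, the cargo and ATG8 genes (MAP1LC3B, GABARAPL1, SQSTM1) had a median log2 fold change of 1.80, from 1.60 to 2.05, and the initiation genes (ATG13, ATG101, ATG14, PIK3R4) one of 0.93, from -0.70 to 1.02. In fasting replicates 1, 2 and 3 the median of the first lay above that of the second by 0.92, 0.94 and 0.97 (SD 0.03). In control libraries the same difference ran from -0.05 to 0.07. These medians over chosen genes were not tested, and the full lists differ. The 9 listed cargo receptors had a median of 0.83, below the 0.90 of the 3 listed ULK complex genes. The 5 listed ATG8 genes ran from -0.82 to 2.05 (median 1.80). The 4 listed lipid kinase complex genes ran from -0.70 to 0.98 (median 0.75). For single genes, the ratio of MAP1LC3B to PIK3R4 rose by 2.75, of GABARAPL1 to PIK3R4 by 2.51, of SQSTM1 to PIK3R4 by 2.30 and of ATP6V1B2 to PIK3R4 by 2.13 on the log2 scale. The groups did not overlap in any of these 4 ratios (exact permutation p = 0.1, adjusted p = 0.111 over 10 pairs, for each). That separation was fixed in advance, because the upper gene of each ratio lay above all controls and PIK3R4 below them. It adds nothing to the values of the single genes.

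Membrane growth genes rose in all 4 listed of 10, none of which is among the 19 genes. The median of the 4 was 1.20, against 0.53 for all listed genes, of which 49.7% passed upward. WIPI1, which binds the lipid made by the PIK3C3 complex, went from 163 ± 16 to 533 ± 48 normalized counts (SD, n = 3; log2 fold change 1.71, limma adjusted p = 0.000104). TMEM41B, a lipid scramblase, rose by 1.04 and WDR45, a relative of WIPI1, by 1.37. WIPI2 rose by 0.53, a call lost without control replicate 1 or 3, with total-read scaling and without moderation of the variance.

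The conjugation genes were divided, 2 rising and 2 falling of 4 listed among 11 (median -0.02). That division is near the 49.7% upward and 44.6% downward of all listed genes. ATG12 (ENSG00000145782), a ubiquitin-like protein, rose from 682, 671 and 659 to 1010, 992 and 1048 normalized counts, by 0.60 ± 0.08 (SE, limma adjusted p = 0.00163). ATG5, to which ATG12 is joined, rose by 0.71 ± 0.15 (SE, limma adjusted p = 0.0150), from 500 ± 7 to 828 ± 179 (SD, n = 3), with fasting replicate 3 at 1034 against 738 and 713. With total-read scaling both values (0.12 and 0.23) missed the threshold, and the call of ATG5 was lost without any 1 control library (limma adjusted p = 0.0646 to 0.0743). PRDM1 overlaps ATG5, and AP3S1 overlaps ATG12, on the opposite strand.

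ATG16L2 (ENSG00000168010), a relative of the ATG16L1 that brings the conjugate to the membrane, fell from 759, 789 and 774 to 443, 415 and 554 normalized counts, by 0.73 on the log2 scale (SE 0.12, limma adjusted p = 0.00493). FCHSD2 overlaps it on the opposite strand. Here fasting replicate 3 lay nearest to the controls, and without it the log2 fold change was -0.85. ATG4C, one of the proteases that trim ATG8 proteins, had 234, 241 and 235 normalized counts in controls and 136, 138 and 187 in fasting medium (log2 fold change -0.64 ± 0.15 SE, limma adjusted p = 0.0257). The call of ATG4C disappeared when any library other than fasting replicate 3 was removed (limma adjusted p = 0.101 to 0.116), with RLE scaling (-0.44) and in DESeq2 (-0.43). The log2 ratio of ATG12 to ATG16L2 rose by 1.33 and that of ATG5 to ATG16L2 by 1.43 within libraries, as values with no test.

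All 7 listed subunits of the proton pump rose, by 0.54 to 1.94 on the log2 scale. Of all listed genes 49.7% passed upward, and the median over all of them was 0.53. The 7 subunits are 5 of 13 V1 genes (median 1.17) and 2 of 12 V0 and accessory genes. The other genes of these 2 lists have no value here. ATP6V1B2 (ENSG00000147416), the B subunit of the ATP-splitting head, had 1703, 1648 and 1590 normalized counts in controls and 4510, 4369 and 4430 in fasting medium. Its fasting libraries, replicate 3 included, were within a spread of 71 (SD) around a mean of 4437. The log2 fold change was 1.43 ± 0.07 (SE, n = 3 each, limma adjusted p = 3.13e-05), the lowest adjusted p of the 19 genes. ATP6V0A1 (ENSG00000033627), an isoform of the large membrane subunit a, rose by a like amount, from 877, 818 and 804 to 2183, 2164 and 2072 (log2 fold change 1.36 ± 0.08 SE, limma adjusted p = 5.02e-05). The log2 ratio of ATP6V1B2 to ATP6V0A1 was 0.98 ± 0.03 in controls and 1.05 ± 0.04 in fasting medium (SD, n = 3 each), a rise of 0.07 that became -0.17 with the length trend removed.

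The other V1 subunits rose by different amounts. ATP6V1G1 (ENSG00000136888), of the peripheral stalk, had 1051, 1045 and 1121 normalized counts in controls and 3661, 3635 and 5196 in fasting medium. It has the shortest transcript of the 19 genes (1080 bases), and its log2 fold change of 1.94 ± 0.14 (SE, limma adjusted p = 0.000133) was 1.77 without fasting replicate 3 and 1.51 with the length trend removed. ATP6V1H, a regulatory subunit, rose by 1.17 and ATP6V1C1, which joins the sectors, by 1.02 (limma adjusted p = 0.000559 and 0.000157). ATP6V1E1, the stalk partner of the G subunit, rose by 0.87 ± 0.16 (SE, limma adjusted p = 0.00835), from 732 ± 9 to 1362 ± 339 normalized counts (SD, n = 3). Without fasting replicate 3 it rose by 0.67, and with total-read scaling it had 0.39 and adjusted p = 0.159.

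ATP6V0A2, the other listed isoform of subunit a, had the smallest rise of the listed subunits with the deposited scaling. It had 320, 289 and 299 normalized counts in controls and 485, 474 and 374 in fasting medium, and a log2 fold change of 0.54 ± 0.13 (SE, limma adjusted p = 0.0258). Removing any library other than fasting replicate 3 ended the call (limma adjusted p = 0.0764 to 0.129), and so did total-read scaling (0.07). Its transcript is the longest of the 19 (6542 bases), and with the length trend removed the value was 1.00, above those of ATP6V1H (0.99) and ATP6V1E1 (0.51). ATP6V1FNB is named for its place beside the gene ATP6V1F and is not a pump subunit. It was the lowest of the 19 genes, with 41 to 69 reads per library, and KCP overlaps it on the opposite strand. ATP6V1FNB went from 40.3 ± 9.5 to 73.3 ± 12.7 normalized counts (SD, n = 3; log2 fold change 0.86, limma adjusted p = 0.0449). That call was lost in the same way when any library other than fasting replicate 3 was removed (limma adjusted p = 0.0538 to 0.174).

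**Figure D4:**
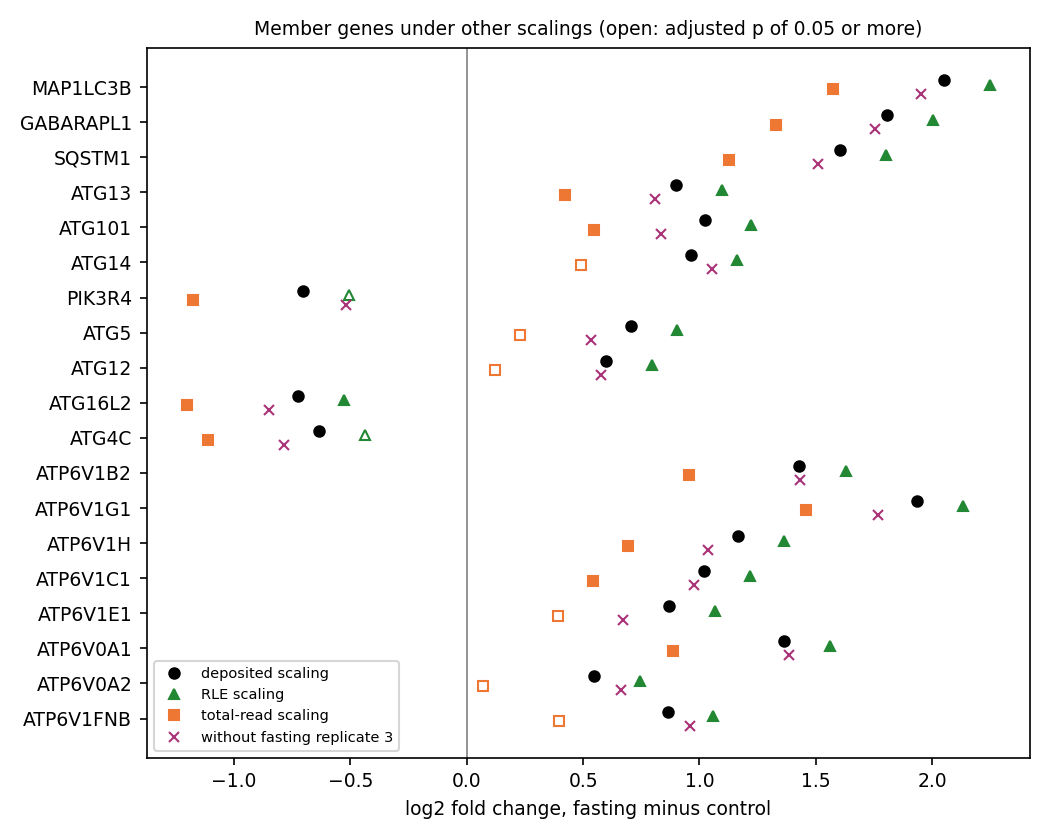
Log2 fold change of each of the 19 genes with the deposited scaling (circles), RLE scaling (triangles), total-read scaling (squares) and without fasting replicate 3 (crosses), with circles, triangles and squares open where the adjusted p is 0.05 or more. No gene changes sign, PIK3R4 and ATG4C are open with RLE scaling, and 6 genes are open with total-read scaling.

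Fusion and lysosome genes rose in every listed case, where 49.7% of all listed genes passed upward and the median of all listed genes was 0.53. The genes of these lists that are not listed have no value here. Of 14 fusion genes 4 were listed and rose (median 1.16), VPS11, a tethering subunit, by 1.25, RAB7A, the late endosomal GTPase, by 1.02 and YKT6, a SNARE, by 1.22. Of 30 lysosomal membrane proteins and hydrolases 10 were listed and 10 rose (median 1.27). The sialidase NEU1 went from 644 ± 38 to 2624 ± 393 normalized counts (SD, n = 3; log2 fold change 2.02, limma adjusted p = 5.02e-05), and the protease TPP1 rose by 1.31. With total-read scaling 9 of these 10 passed, where 862 of all 3511 listed genes passed upward. Among the transcription factors of the CLEAR and FOXO families only TFE3, 1 of 7, was listed, and it rose by 0.68 ± 0.08 (SE, limma adjusted p = 0.000802). With total-read scaling it had 0.21 and did not pass.

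Genes of nutrient signalling at the lysosome rose in 9 listed of 29 (median 1.21), of which 6 passed with total-read scaling (median 0.73) and 6 without moderation of the variance. Upward passes over all 3511 listed genes numbered 862 and 1134 in the same settings. The 9 genes include both inhibitors and components of mTORC1 signalling. SESN2, an inhibitor, had the largest rise (log2 fold change 3.32, limma adjusted p = 2.80e-06), and DDIT4, another inhibitor, rose by 2.33. FLCN, which acts on the Rag GTPases that recruit mTORC1, rose by 1.63. Across all 12 lists, 60 of 164 genes were listed, 56 rose and 4 fell (PIK3R4, ATG16L2, ATG4C and MAP1LC3C), where 49.7% of all listed genes passed upward and 44.6% downward. MAP1LC3B2 is among the 56.

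**Figure D5:**
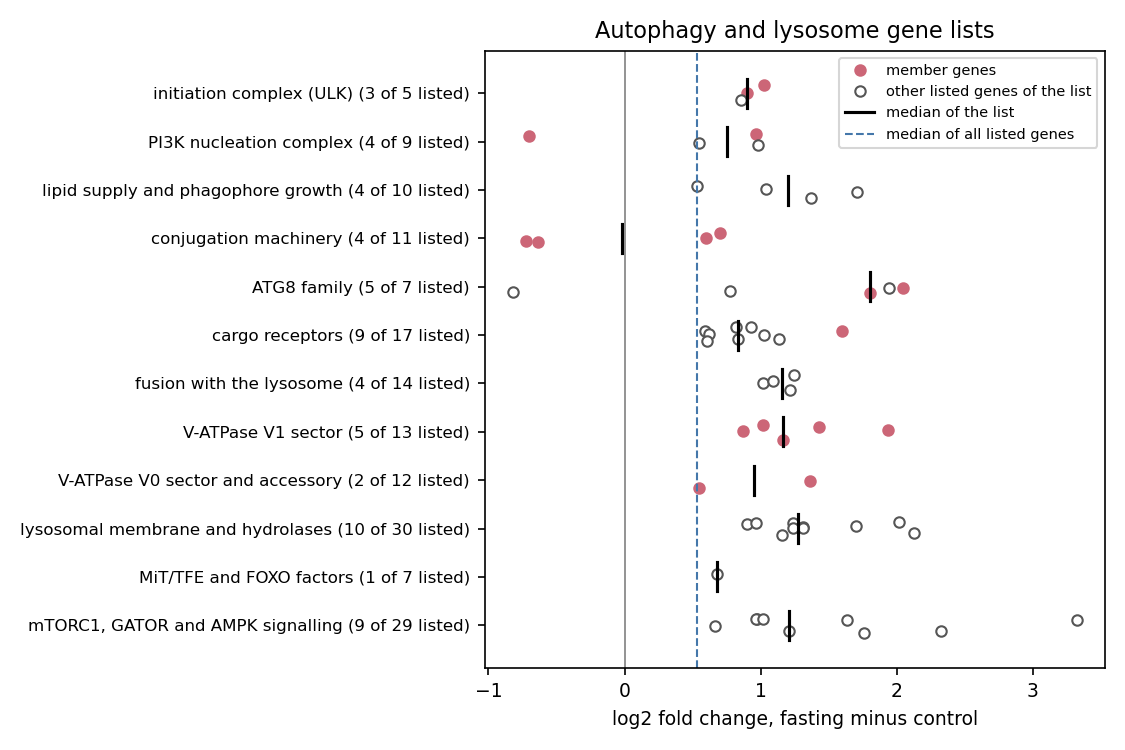
Log2 fold change of the listed genes of 12 autophagy and lysosome lists, with the 19 genes filled, other genes open, a black bar at each list's median and a dashed line at the median of all listed genes (0.53). The 4 points left of 0 belong to the lipid kinase complex, the conjugation machinery and the ATG8 family.

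Listed coding genes with a profile over the 6 libraries most like that of each gene were found by the root-mean-square difference of log2(normalized count + 1) from the control mean, among 2730 genes. Nearest to MAP1LC3B were TM4SF19 (a difference of 0.0309), TRIM16L (0.0434) and CASP4 (0.0574). Nearest to GABARAPL1 were STX3 (0.0573), CD55 (0.0657) and TUFT1 (0.0690), and nearest to SQSTM1 were YPEL5 (0.0378), GNPDA1 (0.0406) and PEA15 (0.0575). Nearest to ATP6V1B2 were TNFRSF10D (0.0233), ING3 (0.0255) and GTPBP2 (0.0319), and nearest to PIK3R4 were PRKX (0.0173), SLC22A23 (0.0276) and ERI2 (0.0410). None of these 15 neighbours belongs to the autophagy and lysosome lists.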

How the data were processed

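Total RNA of RKO cells was made into libraries with a directional kit, per the labels' protocols. The drug-treated cells that the design also names are not analysed here. Tools in the submitters' processing notes are DESeq 1.10.1, HTSeq 0.6.1 and UMI-tools 1.0.0, without their roles. The sources used here name no aligner, build, annotation or strand setting. The deposited signal is a normalized count: 100% of values in each library were whole reads, within 0.01 read, divided by a size factor (0.727 to 1.41), and 4017618 to 5602177 reads per library fell in listed genes. Further deposited columns hold a log2 fold change, a p-value and its adjusted p-value, the highest being 0.0500. The number of genes tested by the authors, 29845, was recovered from these.

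The values were tested with limma 3.58.1 (trend, moderation) on log2(normalized count + 1), with a minimum group mean of 1 (reached in either medium), because the deposited unit is neither raw counts nor CPM. In the adjustment, genes outside the table were taken as not different, and the moderation rests on genes selected for a difference. Fits were tested on simulated data. The count tests edgeR 4.0.16 and DESeq2 1.42.0 on the recovered reads were alternatives, with edgeR calling 3359 genes at the deposited size factors. Lists were matched by symbol, through current names where older ones stood in the table. Transcript lengths are from GENCODE release 29. Beyond the 19, up to 3 genes a list were named by lowest adjusted p, and others after their values were seen. One gene that this rule names is not reported here. The genes and lists were chosen with earlier results of these data known. The labels do not say that replicates came from separate cultures. The spread behind each p-value is thus that between these libraries and may be a technical one. The total depth of the libraries is not known from the table.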

Additional observations from a re-analysis of the deposited data

How the results depend on the processing

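No gene of the 19 changed direction under any of the 20 settings run, and 9 passed in all of them: MAP1LC3B, GABARAPL1, SQSTM1, ATP6V1B2, ATP6V0A1, ATP6V1G1, ATP6V1C1, ATP6V1H and ATG13. Scaling to total reads of the listed genes, which moves log2 fold changes by a median of -0.48, left 10 of the 16 risers past the threshold, moved the 9 rises and 0 falls of at least 2-fold to 4 and 3, and over all listed genes 862 higher and 1708 lower against 1745 and 1567. RLE scaling (a median shift of 0.20) and DESeq2 each left 1 of the 3 fallers, ATG16L2. Both took their size factors from the listed genes alone, which are selected for a difference. Without moderation of the variance (a linear model per gene) 11 risers and 0 fallers passed, with 3 fallers at an unadjusted p under 0.05, 3 in edgeR and 1 in DESeq2, and 1134 higher and 847 lower over all listed genes. The risers that did not pass without moderation were ATG101, ATP6V1E1, ATG5, ATP6V0A2 and ATP6V1FNB. Leaving out each library in turn gave 13 to 16 risers and 1 to 3 fallers, the fewest of both without any 1 control library. A minimum mean of 100 removed ATP6V1FNB. The 10 tested within-library ratios kept their direction with no pseudocount, with pairs by number, without each library in turn and, in a check added after seeing the data, with the length trend removed, which turned the untested ratio of ATP6V1B2 to ATP6V0A1 from 0.07 to -0.17; the cause was not tested.

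Replicate numbers are shared by the groups, but the deviations of same-numbered libraries from their group means correlated by only 0.0315, 0.0265 and 0.0772, and fasting replicate 2 correlated best with control replicate 1. With the replicate block limma called 16 risers and 3 fallers among the 19 genes and 1715 higher and 1578 lower over all listed genes. With pairs by number the exact permutation p of each within-library ratio was 0.25, the smallest that 3 pairs allow, and the ratio of MAP1LC3B to PIK3R4 rose by 2.75. The block changed no call of the 19 genes or of the other list genes.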

Other observations

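On the opposite strand to MAP1LC3B, GENCODE release 29 annotates an antisense gene, ENSG00000261592, that is also in the deposited table. It went from a mean of 1.61 to 9.87 normalized counts (log2 fold change 1.97 ± 0.47 SE, limma adjusted p = 0.0320, n = 3 each). The libraries held 1.97, 2.13 and 0.73 in controls and 14.0, 11.5 and 4.13 in fasting medium. Since 1 read is worth 0.71 to 1.38 normalized counts, this change rests on few reads per library. Reads of a gene and its antisense partner cannot be told apart where counting ignored strand, and its level is far below that of MAP1LC3B. Genes on the opposite strand also overlap SQSTM1 (MGAT4B, MRNIP), ATG16L2 (FCHSD2), ATG12 (AP3S1), ATG13 (HARBI1), ATG5 (PRDM1) and ATP6V1FNB (KCP), none of them listed. Their part in the values was not tested.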
